A study of Mus musculus with 2 samples.

Results

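The SWI/SNF chromatin remodelling complexes were followed through 10 genes that encode their subunits: *Smarca2*, *Smarca4*, *Smarcb1*, *Smarcc1*, *Smarcc2*, *Smarcd1*, *Smarce1*, *Arid1a*, *Arid1b* and *Pbrm1*. They were chosen by their symbols as subunits of the BAF and PBAF forms of the complex. No cut on their values was used, but earlier results of these data were known. All 10 are among the 21041 genes of the deposited RNA-seq table. The table holds 1 library of DP thymocytes, the immature thymocytes that carry both CD4 and CD8, for each of the WT and *Cxxc1*-deficient genotypes. By the study's methods, WT mice carried the *Cxxc1* fl/fl allele without Cre and the *Cxxc1*-deficient mice were *Cxxc1* fl/fl hCD2-Cre, in which the human CD2 promoter drives Cre from early thymocyte stages onward and also in other immune cells. The genotype label of the deficient library reads Cxxc1+/-, whereas its title calls it KO, and it was grouped by its title. Mice were 3 to 4 weeks old unless the study stated otherwise. The number and the sex of the mice behind each library are not given in the sources used here. Cxxc1 (also called CFP1) binds unmethylated CpG and is a subunit of the SETD1 complexes that trimethylate lysine 4 of histone H3 (H3K4me3).

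SWI/SNF complexes use the energy of ATP to slide or evict nucleosomes and so open promoters and enhancers. Each complex holds 1 ATPase, either SMARCA4 (BRG1) or SMARCA2 (BRM), on a core built from SMARCC1 and SMARCC2, a SMARCD subunit, SMARCB1 and SMARCE1. ARID1A or ARID1B defines the BAF form, whereas PBRM1 with ARID2, BRD7 and PHF10 defines the PBAF form. A further form, ncBAF, lacks SMARCB1 and SMARCE1 and contains BRD9 with GLTSCR1 or its paralogue GLTSCR1L. In developing T cells, BRG1 and SMARCE1 are known for silencing of *Cd4* and activation of *Cd8*, and SMARCC1 was described in mouse thymus under the name SRG3.

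The deposited values are normalised expression values rounded to whole numbers, in a unit that is not named. They sum to 1551994 in WT against 981677 in the *Cxxc1*-deficient library, and the median over all genes was 36 in both. The number of reads is unknown, so no counting error can be given, and since each genotype is represented by a single library, differences lack a replicate check and were not tested. *Cxxc1* itself had 91 in WT against 50 in the *Cxxc1*-deficient library, 1.82-fold lower as deposited, with a log2 ratio of -0.86 that turned to 0.13 when the medians of genes averaging 100 or more were equalised. The median over all genes was 0.79 under that equalisation. As deposited, genes of the level of *Cxxc1* had a median log2 ratio of -0.58, with quartiles of -0.98 and -0.27. *Cxxc1* thus did not stand apart from them. The value of 50 was under the 95th percentile of olfactory receptor genes in that library, 57, genes taken here as silent. Loss of the targeted transcript is thus not established by these values alone, and the table gives no value for the exons between the loxP sites. The study reported the loss in DP cells by other assays. By qPCR *Cxxc1* mRNA was almost absent, by genomic PCR the floxed band was gone, and a western blot showed deletion of the protein. Whether the sequenced cells were among those assayed is not given. The name "*Cxxc1*-deficient" is used below as in the title and the study. Of 8 DP-stage and T-cell markers, 8 were lower as deposited and 6 under the same equalisation, with summed values of 34146 in WT against 9457 in the *Cxxc1*-deficient library, and *Cd4* (2728 and 1257) and *Cd8a* (3503 and 507) were well above the median in both. Markers of B cells (4 genes, summing to 142 and 101), erythroid cells (4 genes, 75 and 65, with *Hba-a1* at 0 in both), macrophages and dendritic cells (5 genes, 178 and 224), NK cells (3 genes, 92 and 71) and thymic epithelium and stroma (5 genes, 110 and 104, with *Krt8* at 0 in the *Cxxc1*-deficient library) summed to far less than the DP markers in both libraries, the highest gene being *Itgam* (101 and 107). Their part in the results was not tested. The Y-linked genes *Eif2s3y*, *Ddx3y*, *Kdm5d* and *Uty* were listed at 0 in WT and at 67, 31, 39 and 17 in the *Cxxc1*-deficient library, so that sex and genotype cannot be told apart. In bulk samples, fewer cells of a type and less RNA per cell cannot be told apart either.

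Of the 10 subunit genes, 9 were lower in the *Cxxc1*-deficient library as deposited (5 when the medians of genes averaging 100 or more were equalised) and 1, *Arid1a*, was nearly the same in both. The values summed to 2366 in WT against 1322 in the *Cxxc1*-deficient library, and their log2 ratios (*Cxxc1*-deficient over WT) had a median of -0.93, which corresponds to a 1.91-fold lower value. Over the 20125 genes above 0 in at least 1 library, the median log2 ratio was 0.79 under that equalisation, so most genes were then higher. As deposited it was -0.20, with quartiles of -0.77 and 0.24, and 59.9% were lower. At 2-fold, a threshold the study also used, 5 of the 10 subunit genes were lower, against 17.4% of all genes, and 0 were higher, against 5.89% of all genes. At 1.5-fold, 7 of the 10 were lower, against 31.9% of all genes, and at 3-fold 0 were lower, against 6.30%.

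**Figure D1:**
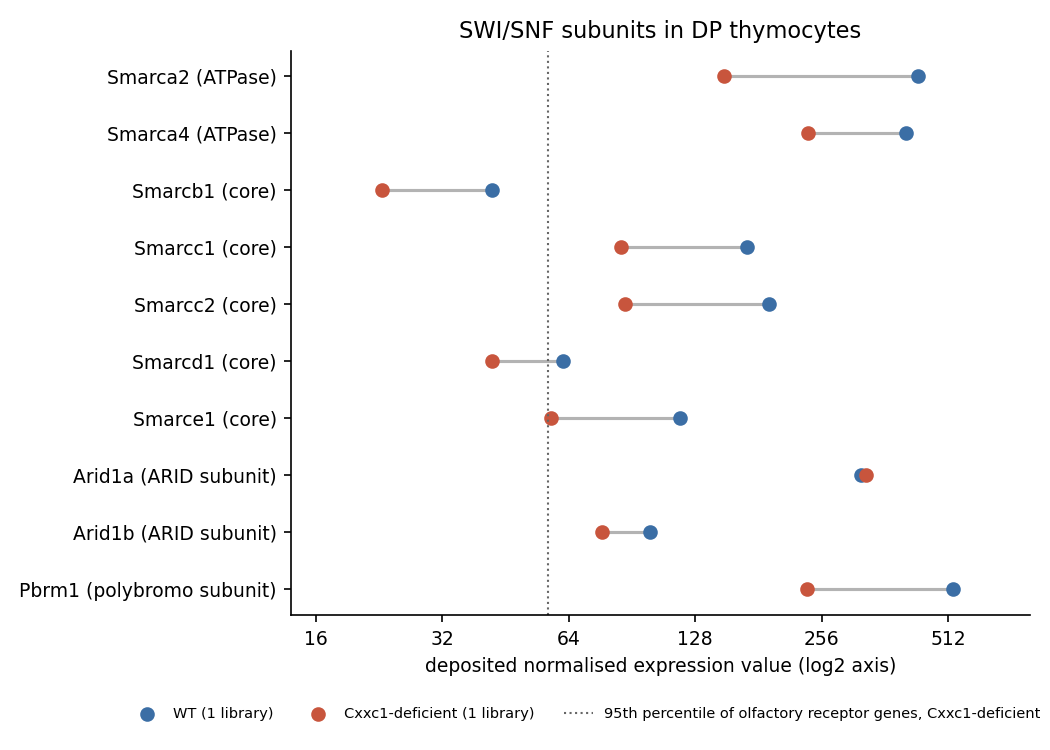
Deposited normalised expression values (log2 axis) of the 10 SWI/SNF subunit genes in 1 WT and 1 *Cxxc1*-deficient library of DP thymocytes, with a line joining both values of a gene and a dotted line at 57, the 95th percentile of olfactory receptor genes in the *Cxxc1*-deficient library. In 9 genes the *Cxxc1*-deficient value lies to the left of the WT value, and in *Arid1a* both values nearly coincide (318 and 326).

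The difference between the libraries depended on the level of a gene, so each subunit was read beside genes of its own level. Where the mean of both libraries was 100 or more (2472 genes), 95.2% were lower, 56.8% were at least 2-fold lower and the median log2 ratio was -1.08. Of the 6 subunit genes in this range, 5 were lower and 4 (*Smarca2*, *Smarcc1*, *Smarcc2* and *Pbrm1*) were at least 2-fold lower, a share close to that of the range. Among the 3657 genes with a mean from 50 to 100, 20.0% were at least 2-fold lower and the median log2 ratio was -0.53. Of the 3 subunit genes in that range (*Smarcd1*, *Smarce1* and *Arid1b*), *Smarce1* was. Below a mean of 50 (13996 genes), where *Smarcb1* lies, 9.75% were at least 2-fold lower and the median log2 ratio was 0.

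**Figure D2:**
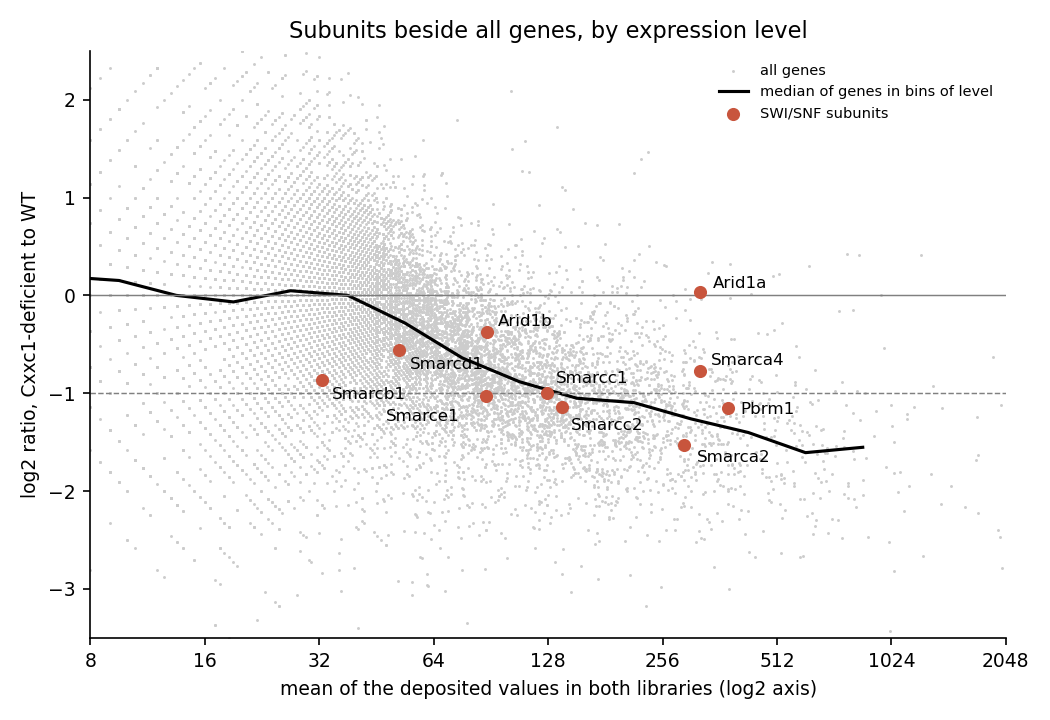
Log2 ratio of *Cxxc1*-deficient to WT against the mean of the deposited values (log2 axis) for all genes within the axes (grey), the median of genes in bins of level (black line) and the 10 SWI/SNF subunit genes (red), with a dashed line at 2-fold lower. The line stays near 0 at low levels and goes down at higher ones, most subunits lie near it, and *Arid1a* and *Smarca4* lie above it at the same mean of 322.

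The ATPase genes were among the most highly expressed subunits and differed from each other in their ratio. *Smarca4* (BRG1) occupies positions 21420613 to 21508674 of chromosome 9 (plus strand; this and all gene positions are in mm9). Its expression was 406 in WT against 238 in the *Cxxc1*-deficient library, 1.71-fold lower, with a log2 ratio of -0.77. *Smarca2* (BRM), on chromosome 19 from 26679650 to 26852811, had 433 in WT against 150 in the *Cxxc1*-deficient library, 2.89-fold lower, with a log2 ratio of -1.53, the lowest of the 10 genes. For each gene, the 200 genes closest to it in mean value served as a description of its level, with all genes tied with the last of them included. Those around *Smarca4* had a median log2 ratio of -1.35 with quartiles of -1.71 and -0.98, and *Smarca4* was above the upper quartile. Those around *Smarca2* had a median of -1.23 with quartiles of -1.64 and -0.91, and *Smarca2* was between them.

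A ratio of the values of a gene pair within a library does not depend on the scaling of that library. Comparing levels between genes assumes values per length. The unit is not named and this was not tested, so the standing of genes within a library is given on the deposited scale only. A division by length cancels from the change of that standing between libraries. Any other difference between the libraries that goes with length would not cancel. On the deposited scale, *Smarca4* stood at 0.938 times *Smarca2* in WT and at 1.59 times *Smarca2* in *Cxxc1*-deficient cells. The log2 ratio of *Smarca4* thus exceeded that of *Smarca2* by 0.76. For the scaffold pair, *Smarcc1* stood at 0.885 times *Smarcc2* in WT and at 0.977 times in *Cxxc1*-deficient cells, and their log2 ratios differed by 0.14 only.

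As deposited, 5 of 5 core genes among the 10 were lower. Of all genes 59.9% were lower. *Smarcc1* and *Smarcc2* average 100 or more, where 95.2% of genes were lower. *Smarcd1* and *Smarce1* average from 50 to 100, where 82.6% were, and *Smarcb1* averages less than 50, where 47.8% were. When the medians of genes averaging 100 or more were equalised, 3 of 5 core genes were lower. Of these 3, *Smarcc1* (-0.0034) and *Smarce1* (-0.028) then had log2 ratios near 0. The median of all genes was 0.79 under that equalisation. As deposited, the 5 had a median log2 ratio of -1.0 and summed values of 584 in WT against 295 in the *Cxxc1*-deficient library. Of the core genes outside the 10, *Smarcd2* was lower (426 in WT and 116) and *Smarcd3* was higher (14 and 25). *Smarcc1* (BAF155), on chromosome 9 from 110034541 to 110142682, had 170 in WT against 85 in the *Cxxc1*-deficient library, 2.0-fold lower. Because the values are rounded to whole numbers, its fold before rounding lies between 1.98 and 2.02, so it is at the threshold rather than past it. *Smarcc2* (BAF170), on chromosome 10 from 127896292 to 127927229, had 192 and 87, 2.21-fold lower. The genes closest to *Smarcc1* in level had a median log2 ratio of -1.01, against -1.0 for *Smarcc1*, and those closest to *Smarcc2* had -1.01, against -1.14 for *Smarcc2*. Both scaffold genes were therefore within the quartiles of genes of their level.

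*Smarce1* (BAF57), whose product has an HMG domain that binds DNA, occupies positions 99070361 to 99092331 of chromosome 11, on the minus strand. Its expression was 118 in WT against 58 in the *Cxxc1*-deficient library, 2.03-fold lower and from 2.01- to 2.06-fold within rounding. Its log2 ratio of -1.02 was between the quartiles of genes of its level (-1.08 and -0.38). *Smarcd1* (BAF60a), a subunit that contacts transcription factors, lies on chromosome 15 from 99532718 to 99544426 and had 62 in WT against 42 in the *Cxxc1*-deficient library, 1.48-fold lower. In the annotation, 183 of its exonic bases are shared with *Gm17349* on the opposite strand, the only such overlap among the 10 genes, and since the use of strand in counting is not given in the sources used here, reads of this pair cannot be told apart.

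*Smarcb1* (SNF5), at 75359514 to 75384362 of chromosome 10 (minus strand), had the lowest values of the 10 genes, 42 in WT against 23 in the *Cxxc1*-deficient library. Its log2 ratio was -0.87, below the lower quartile of -0.31 of the 283 genes nearest in level, whose median was 0.04. Both of its values were nevertheless at a level that silent genes reach. The 1122 olfactory receptor genes, which are not known to be used by thymocytes, had a median of 22 in WT against 24 in the *Cxxc1*-deficient library and a 95th percentile of 53.95 and 57. *Smarcb1* was under the 95th percentile in both libraries and *Smarcd1* was under it in the *Cxxc1*-deficient library, whereas the other 8 subunit genes were above it in both. For *Smarcb1* the size of the difference is therefore the least certain.

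The subunits that set the form of the complex differed the most among themselves. *Arid1a* (BAF250A), at 133234923 to 133312684 of chromosome 4 (minus strand), had 318 in WT against 326 in the *Cxxc1*-deficient library, or 1.03 times the WT value, which rounding leaves between 1.02 and 1.03. Of 867 genes whose mean was 200 or more, 34 were not lower, *Arid1a* among them. The genes closest to it in level had a median log2 ratio of -1.35, against 0.04 for *Arid1a*, and 4 of these 200 had a ratio at least as high. *Arid1b* (BAF250B), its paralogue, lies on chromosome 17 from 4994332 to 5347656 and had 100 in WT against 77 in the *Cxxc1*-deficient library, 1.30-fold lower, with a log2 ratio of -0.38 at the upper quartile of genes of its level. *Arid1a* stood at 3.18 times *Arid1b* in WT and at 4.23 times in *Cxxc1*-deficient cells. Together the ARID1 genes summed to 418 in WT against 403 in the *Cxxc1*-deficient library.

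*Pbrm1* (BAF180), the bromodomain-rich subunit of PBAF on chromosome 14 from 31832324 to 31934778, had the highest WT value of the 10 genes. Expression was 525 in WT against 236 in the *Cxxc1*-deficient library, 2.22-fold lower, with a log2 ratio of -1.15. This was between the quartiles of genes of its level, which were -1.73 and -0.98. *Pbrm1* was above *Arid1a* in WT, at 1.65 times its value, and below it in *Cxxc1*-deficient cells, at 0.724 times. The log2 ratio of *Pbrm1* was thus 1.19 below that of *Arid1a*, in libraries whose scaling does not enter this difference.

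**Figure D3:**
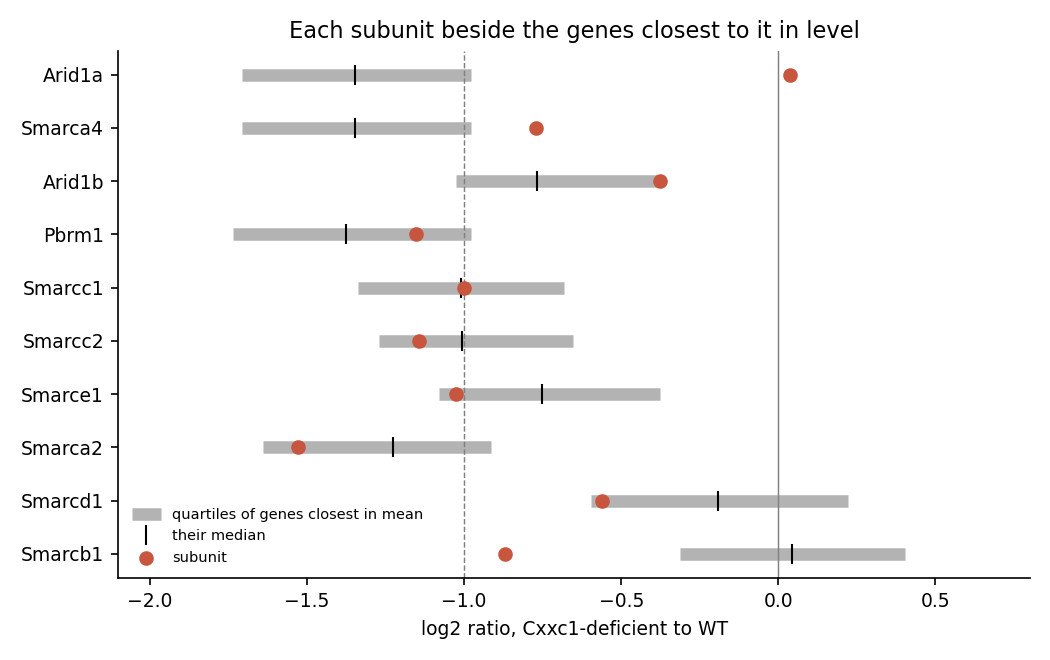
Log2 ratio of *Cxxc1*-deficient to WT of each SWI/SNF subunit gene (red) beside the quartiles (grey bar) and median (black mark) of the genes closest to it in mean value, sorted by the distance from that median. *Arid1a* and *Smarca4* lie to the right of their bars, *Smarcb1* lies to the left, *Arid1b* is at the right end of its bar and the other 6 lie within theirs.

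Transcript length and promoter sequence were set beside these ratios. By the longest transcript of GENCODE vM1, the 6 subunit genes with a mean of at least 100 are in the upper 2 of 5 equal classes of length among genes of that range. The class with the longest transcripts, from 6099 to 28204 bases, had a median log2 ratio of -0.91, against -1.32 in the class with the shortest, and 3.63% of its 468 genes were not lower. It holds *Arid1a* (8190 bases), *Pbrm1* (7907) and *Smarca4* (6376). The part of length in the ratios was not tested.

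Because Cxxc1 binds CpG, CG dinucleotides were counted in the 250 bases before each RefSeq transcription start. RefSeq windows (GRCm38.p6) were found for 9 of the 10 genes, with 2 starts for *Arid1a*, and each of the 10 windows was found once in NCBIM37, the build of mm9. With the window richest in CG for each gene, the 9 genes had a median of 29 CG, from 21 to 40. For 1917 genes whose mean was 100 or more, the median was 20 and the quartiles were 14 and 27. Among these 1917 genes, the median log2 ratio was -1.08 for 28 to 56 CG and -1.05 for 0 to 14 CG, so that CG number and ratio moved little together. Binding of Cxxc1 and H3K4me3 at these windows were not analysed here. In DP cells the study reported enrichment of Cxxc1 at the centre of CpG islands and around transcription start sites. Only a small share of its Cxxc1-binding sites, however, lay at CpG islands. How many windows rich in CG were bound is not known here, so CG number was not read as binding. The windows below are those of *Smarca2*, the subunit gene with the lowest ratio, of *Smarca4*, its paralogue, and of both starts of *Arid1a*, the gene with the highest. They are written 5′ to 3′ on the strand of the gene, with CG in capitals, at chr19:26679400-26679649 on the plus strand (Smarca2), chr9:21420363-21420612 on the plus strand (Smarca4), chr4:133309901-133310150 on the minus strand (Arid1a, first window) and chr4:133312685-133312934 on the minus strand (Arid1a, second window) of NCBIM37. None of the 4 overlaps an annotated exon, and the first window of *Arid1a* lies in an intron of the annotated gene.
Smarca2: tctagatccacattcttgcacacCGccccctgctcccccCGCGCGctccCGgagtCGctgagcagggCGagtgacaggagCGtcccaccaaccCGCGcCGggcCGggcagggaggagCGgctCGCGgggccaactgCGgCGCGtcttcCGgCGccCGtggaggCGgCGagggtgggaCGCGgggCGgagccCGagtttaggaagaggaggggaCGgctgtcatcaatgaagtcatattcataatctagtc
Smarca4: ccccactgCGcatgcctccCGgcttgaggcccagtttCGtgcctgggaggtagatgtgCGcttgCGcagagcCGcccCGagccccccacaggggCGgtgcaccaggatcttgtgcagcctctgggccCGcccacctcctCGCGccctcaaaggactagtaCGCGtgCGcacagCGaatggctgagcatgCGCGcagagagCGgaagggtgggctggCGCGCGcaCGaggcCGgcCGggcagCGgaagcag
Arid1a, first window: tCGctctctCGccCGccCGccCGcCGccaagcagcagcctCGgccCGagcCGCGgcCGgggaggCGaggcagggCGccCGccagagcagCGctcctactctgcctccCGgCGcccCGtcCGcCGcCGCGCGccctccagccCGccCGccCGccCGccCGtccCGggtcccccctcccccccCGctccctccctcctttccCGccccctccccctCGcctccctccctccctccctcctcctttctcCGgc
Arid1a, second window: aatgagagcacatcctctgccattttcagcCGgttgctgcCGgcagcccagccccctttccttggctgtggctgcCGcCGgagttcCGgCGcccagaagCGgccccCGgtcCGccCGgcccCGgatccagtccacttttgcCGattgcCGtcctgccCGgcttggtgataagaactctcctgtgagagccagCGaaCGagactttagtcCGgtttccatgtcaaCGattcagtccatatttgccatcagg

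These windows held 28 CG in *Smarca2*, 25 in *Smarca4*, and 33 and 18 in *Arid1a*. At least as many were present in 7.61%, 10.7%, 4.03% and 21.7% of the 32851 RefSeq windows of this length. The gene with the lowest and the gene with the highest ratio thus both had a window rich in CG, and the second start of *Arid1a* had the fewest CG of the 10 windows.

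A further 20 genes for SWI/SNF subunits were described as a list, of which 16 were lower in *Cxxc1*-deficient cells and 4 were higher. Of all genes 59.9% were lower. Of the 8 genes averaging 100 or more, 7 were lower, against 95.2% of that range. From 50 to 100 it was 6 of 6, against 82.6%, and below 50 it was 3 of 6, against 47.8%. When the medians of genes averaging 100 or more were equalised, 6 of the 20 were lower. All genes then had a median log2 ratio of 0.79. As deposited, the 20 had a median log2 ratio of -0.55. Of them, 6 (30%) were at least 2-fold lower, against 17.4% of all genes, and 0 were at least 2-fold higher. Read by level, 4 of the 8 genes averaging 100 or more were at least 2-fold lower, against 56.8% of that range. Of the 6 genes from 50 to 100, *Actl6a* was, against 20.0%, and of the 6 genes below 50, *Ss18* was, against 9.75%. The 6 were *Phf10*, *Smarcd2*, *Brd7*, *Bcl11b*, *Actl6a* and *Ss18*. *Phf10*, a PHD finger subunit of PBAF, had 280 in WT against 59 in the *Cxxc1*-deficient library, 4.75-fold lower, the lowest ratio of all 30 subunit genes. *Smarcd2* (BAF60b) had 426 and 116, 3.67-fold lower, a log2 ratio of -1.88 where genes of its level had a median of -1.16. Its paralogue *Smarcd1* was 1.48-fold lower, a log2 ratio of -0.56 where genes of its lower level had a median of -0.19. The part of level in their difference was not tested. *Actl6a* (BAF53a), the actin-like subunit, had 97 and 45, and *Ss18* had 64 and 32, a fold that rounding leaves between 1.95 and 2.05 and so at the threshold. *Bcl11b*, a zinc finger factor required for T-cell commitment that associates with BAF, was the most highly expressed of the list. Expression of *Bcl11b* was 1162 in WT against 395 in the *Cxxc1*-deficient library, with a log2 ratio of -1.56. The 200 genes closest to its mean of 778.5 also had a median of -1.56. Their means spread widely, from 404.5 to 1143, so they describe its level only roughly.

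By the form of the complex, the 4 genes of PBAF (*Pbrm1*, *Arid2*, *Brd7* and *Phf10*) were lower in 4 of 4 cases as deposited. It was 3 of 4 when the medians of genes averaging 100 or more were equalised, where all genes had a median log2 ratio of 0.79. All 4 average 100 or more. As deposited, 95.2% of genes in that range were lower and 56.8% at least 2-fold lower, so the count is near that of their level. Their median log2 ratio was -1.37, beside -1.08 for that range, with summed values of 1446 in WT against 622 in the *Cxxc1*-deficient library. Beside genes of their own level they split. Log2 ratios minus the median of that level were 0.22 (*Pbrm1*), 0.65 (*Arid2*), -0.51 (*Brd7*) and -1.17 (*Phf10*). *Arid2* (BAF200) had 379 and 240, 1.58-fold lower, with a log2 ratio of -0.66 above the upper quartile of genes of its level, -0.95. *Brd7*, a bromodomain subunit, had 262 and 87, 3.01-fold lower, with a log2 ratio of -1.59 below the lower quartile of its level, -1.52. That of *Phf10*, -2.25, was also below the lower quartile of its level, -1.48. Of the 3 genes of ncBAF, *Brd9* had 126 in WT against 74 in the *Cxxc1*-deficient library, *Gltscr1l* had 122 and 92, and *Gltscr1* had 84 and 117. *Gltscr1* was thus 1.39-fold higher. Its log2 ratio was 0.48 where genes of its level had a median of -0.83, and 3 of the 214 genes closest to it had a ratio at least as high. The genes of ncBAF summed to 332 in WT against 283 in the *Cxxc1*-deficient library. The counts of lower genes in PBAF and in the core were added after seeing the data. These ncBAF genes, and the variants named next, were also singled out after their values were seen. Subunit variants known from neurons or heart, *Actl6b*, *Dpf1*, *Dpf3* and *Smarcd3*, had values from 8 to 20 in WT and from 6 to 25 in *Cxxc1*-deficient cells, within the range of olfactory receptor genes.

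**Figure D4:**
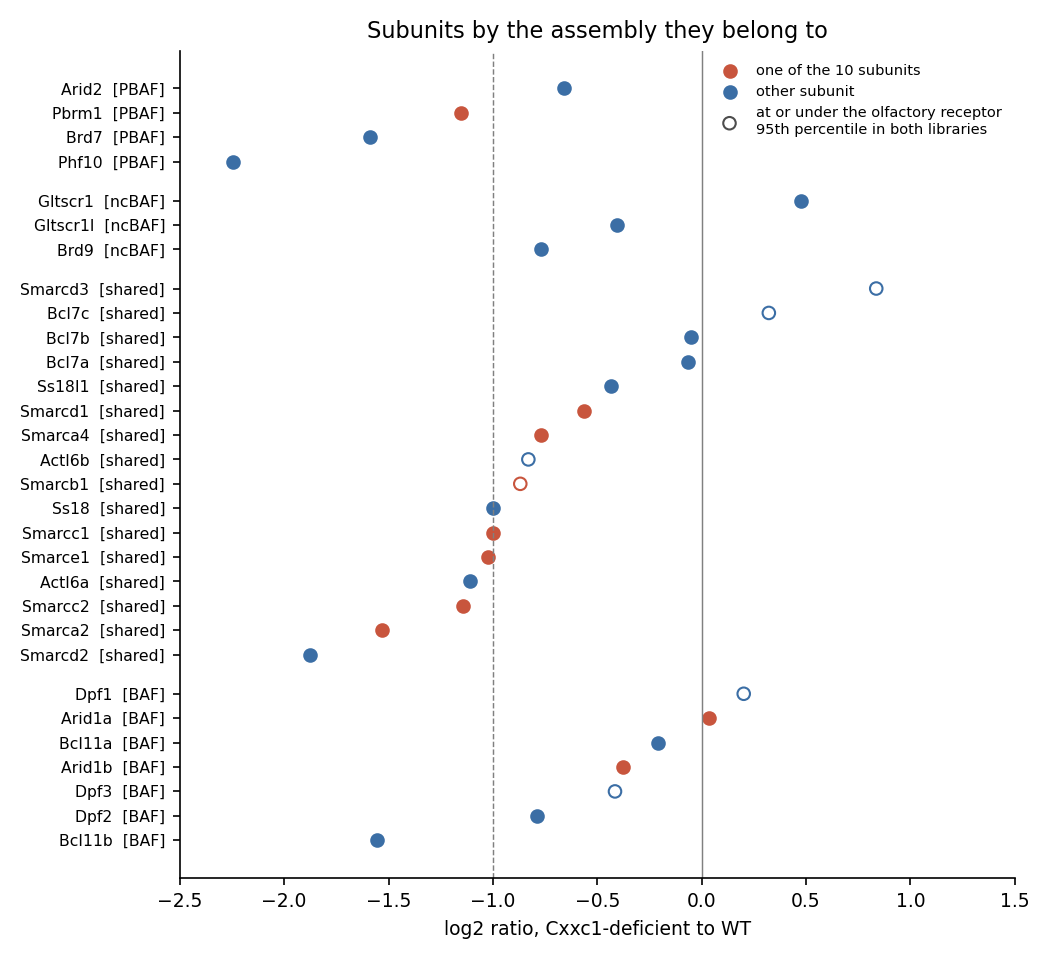
Log2 ratio of *Cxxc1*-deficient to WT of 30 SWI/SNF subunit genes, grouped as genes of BAF, of more than 1 form (shared), of ncBAF and of PBAF, with the 10 main subunits in red, the other 20 in blue and open circles for genes at or under the olfactory receptor 95th percentile in both libraries. As deposited, the 4 PBAF genes lie left of 0, from -2.25 for *Phf10* to -0.66 for *Arid2*, and *Arid1a* and *Gltscr1* are the only filled points to the right of 0.

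Remodelling ATPases that share the *Smarca* symbol but belong to no SWI/SNF complex gave 2 lower and 2 higher values. *Smarca5* (SNF2H), the ISWI ATPase, had 119 in WT against 54 in the *Cxxc1*-deficient library, 2.20-fold lower, and *Smarcad1* had 123 and 81. *Smarca1* (22 and 26) and *Smarcal1* (43 and 47) were under the olfactory receptor 95th percentile in both libraries.

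The direction of single subunits depended on the scaling of the libraries, whose deposited values do not have the same sum. As deposited, 9 of the 10 genes were lower and 1 was higher. With both libraries set to the same 75th percentile or to the same sum without the 100 most expressed genes, 8 were lower, *Arid1a* and *Arid1b* being the exceptions. The median log2 ratio of all genes was then 0.19 and 0.36. With the same sum, *Smarcd1* had a log2 ratio of -5.0e-05, which shows no direction. When the medians of genes averaging 100 or more were equalised, 5 were lower. Among these, *Smarcc1* at -0.0034 and *Smarce1* at -0.028 were near 0. The median log2 ratio of all genes was 0.79 under this equalisation. A scaling to *Gapdh* was also computed, but *Gapdh* is listed at 6 in WT and 10 in the other library, under the olfactory receptor medians of 22 and 24. No direction is read from this scaling. The study used GAPDH as the reference of its qPCR, so a listed value under the olfactory receptor level need not mean a silent gene. This limit also holds for *Smarcb1*, *Smarcd1* and the other genes set beside that level above. The order of the genes by ratio is not affected by scaling, and *Arid1a* had the highest and *Smarca2* the lowest ratio under each of these scalings.

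**Figure D5:**
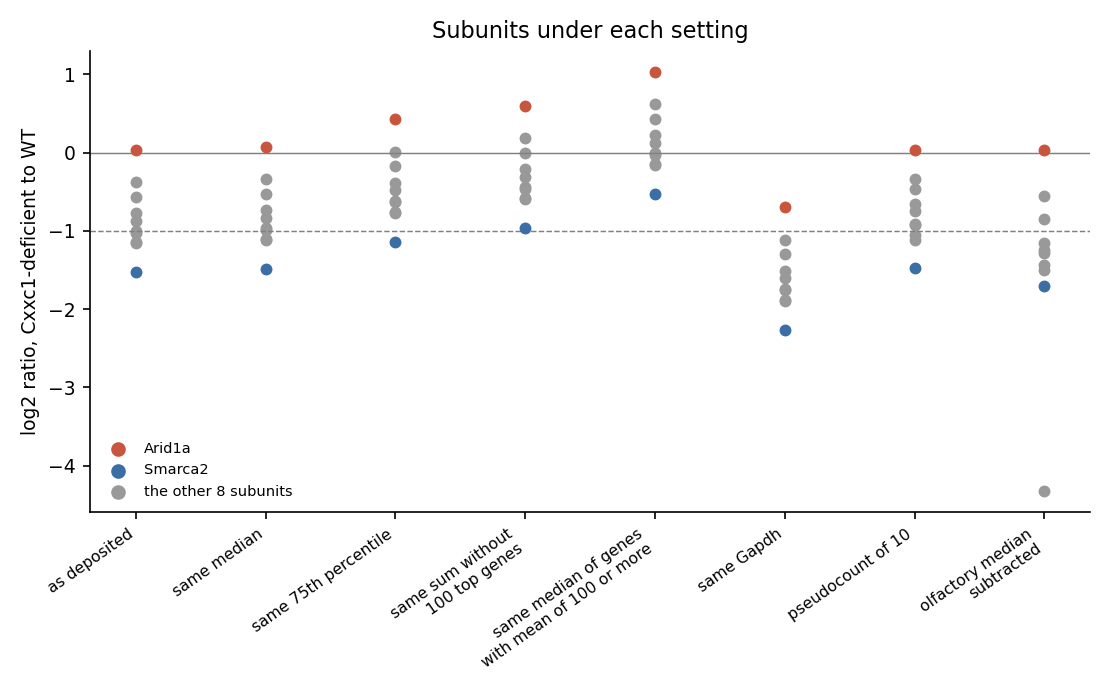
Log2 ratio of *Cxxc1*-deficient to WT of the 10 SWI/SNF subunit genes as deposited, under 5 scalings of the libraries, with a pseudocount of 10 and after subtraction of the olfactory receptor median. The scaling to *Gapdh* rests on a gene under the olfactory receptor median. A scaling moves all points together, *Arid1a* (red) stays on top in each setting, and the point at -4.32 after the subtraction is *Smarcb1*, whose *Cxxc1*-deficient value then rests on the floor of 1.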

How the data were processed

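RNA-seq of DP thymocytes was analysed for 1 WT and 1 *Cxxc1*-deficient library, grouped by title. Per the labels and methods, the authors read bases with CASAVA 1.8.2, mapped to mm9 (Bowtie 1.0.1 is among the listed tools), retained reads with a unique position and analysed them in Partek Genomic Suite. The values the authors deposited were treated as a score, namely normalised expression in whole numbers. Its normalisation, gene annotation and depth are not given in the sources used here.

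Ratios were taken between deposited values, each raised to at least 1, over genes above 0 in at least 1 library, and called at 2-fold. No test was possible with 1 library per genotype. Level was described by the 200 genes closest in mean value, with ties. Positions and lengths came from GENCODE vM1 (NCBIM37) and promoter windows from RefSeq. *Gltscr1l* has no entry in that annotation.

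All 10 members were named; of the other subunits, those at least 2-fold changed, the 2 highest by mean and *Bcl11b*, with the ncBAF genes and the neuronal or cardiac variants added after their values were seen. The *Smarca*-stem remodellers were a separate list. Members and lists were chosen with earlier results of these data known. A marker of the DP list is not reported here. Alternatives were 5 scalings, pseudocounts of 1 and 10, subtraction of the olfactory receptor median, a filter on low genes, and thresholds of 1.5- and 3-fold. The ratios were checked on simulated data. Python 3.11.15, numpy 2.4.6, pandas 2.3.3 and matplotlib 3.10.9 were used.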

Additional observations from a re-analysis of the deposited data

How the results depend on the processing

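The median log2 ratio of the 10 subunit genes was -0.93 as deposited. It was -0.90 with library medians equalised, -0.55 with 75th percentiles equalised, -0.37 with equal sums once the top 100 genes were set aside, -1.67 at equal *Gapdh* (6 in WT against 10, under the olfactory receptor medians of 22 and 24, so that no direction is read from this scaling), and it reversed to 0.062 when the median of genes averaging 100 or more was equalised. These 5 scalings, in the order given, moved the median of all genes by 0.04, 0.39, 0.56, -0.74 and 1.0, and each difference follows from that factor. The median was -0.92 and -0.83 with pseudocounts of 1 and 10, -1.26 after subtraction of the olfactory receptor median and -1.0 in the 9 genes left by a filter on low expression.

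The number of subunit genes at least 2-fold lower, 5 as deposited, was 3, 1, 0, 9 and 0 under these scalings in the same order. It was 3 with a pseudocount of 10, 7 after the subtraction and 0 at 3-fold. The number lower at all was 5 under the scaling to highly expressed genes, the last of these. All genes then had a median log2 ratio of 0.79. Of the other 20 subunits, 6 were at least 2-fold lower as deposited, 3 with equal sums, 1 under the scaling to highly expressed genes, 13 at equal *Gapdh*, 10 at 1.5-fold and 3 at 3-fold.

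Single genes changed direction under scaling alone. Under the scaling to highly expressed genes, log2 ratios became 0.23 for *Smarca4*, 0.13 for *Smarcb1*, 0.43 for *Smarcd1* and 0.62 for *Arid1b*. That of *Arid1b* was also 0.00995 with equal 75th percentiles and 0.18 with equal sums, while that of *Cxxc1* was 0.13 under the scaling to highly expressed genes. The value of -0.70 for *Arid1a* at equal *Gapdh* rests on a gene listed under the olfactory receptor median and supports no change of direction. Settings for *Cxxc1* and for the counts of lower genes in lists were chosen after seeing the data.

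Differences of log2 ratio between subunit genes do not depend on scaling. With a pseudocount of 10 and after the subtraction, *Smarca4* minus *Smarca2* (0.76) was 0.72 and 0.86, *Smarcc1* minus *Smarcc2* (0.14) was 0.14 and 0.15, *Arid1a* minus *Arid1b* (0.41) was 0.37 and 0.59, and *Pbrm1* minus *Arid1a* (-1.19) was -1.16 and -1.28. The depth is unknown, which limits what can be said of *Smarcb1* and *Smarcd1*. No paired analysis was possible because a single library stands for each genotype. For the same reason no library could be left out, and no result has a test.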
